A study of Homo sapiens with 4 samples.

Results

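The regions described here are the intergenic SMARCB1 peaks in acetylated chromatin of SK-Hep1 cells, an established human line labelled as hepatic adenocarcinoma. They were chosen by 2 measured properties: the position class "Intergenic" that the authors gave each peak of their SMARCB1 list, and an overlap of 1 base or more with a peak of H3K27ac in cells with a control shRNA. The rule found 460 peaks among 826 intergenic ones and 4453 SMARCB1 peaks in all. The study profiled H3K27ac by ChIP-seq in puromycin-selected cells with an shRNA against SMARCB1 (shSMARCB1, here the knockdown) and in selected cells with a control shRNA (shCon, here the control), and profiled SMARCB1 itself in a further SK-Hep1 library whose labels do not say which shRNA the cells carried. Each of the 3 groups had 1 library, so there is no replicate check, no test between conditions and no p-value in what follows. Parentheses after a share hold its 95% Wilson interval, which reflects counting error only. The extent of the knockdown cannot be read from these files.

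SMARCB1 is a core subunit of the SWI/SNF complexes, which use ATP to slide or evict nucleosomes and so open chromatin at promoters and enhancers. H3K27ac is laid down by the acetyltransferases p300 and CBP and marks active promoters and active enhancers. Away from genes, a SMARCB1 site within H3K27ac therefore has the marks usually seen at an active distal enhancer or at the start of an unannotated or non-coding transcript. SWI/SNF is known to work with sequence-specific factors such as AP-1 at distal sites.

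Per the file headers, the knockdown H3K27ac library held 10203310 tags and the control library 13235203, and both lists were called against the control input. The lists held 34073 knockdown and 35307 control H3K27ac peaks on the autosomes and X, with median widths of 1601 and 1707 bp. Each H3K27ac peak carries the same score, so its width was the only size that could be compared. A narrower or missing peak in the shallower knockdown library cannot be told apart from lower coverage, at any single locus or over a group of them. Markers of the labelled tissue were mostly unmarked: 6 of 21 hepatocyte genes in knockdown cells and 5 of 21 in control cells had an H3K27ac peak within 1 kb of a gene end, and ALB, APOA1, TTR and HNF4A had none in either. TF, SERPINA1, FOXA1, CEBPA and ONECUT1 had one in both. Endothelial markers were marked at 4 of 21 genes in both libraries, namely ENG, ESAM, SOX18 and MMRN2, with PECAM1, CDH5 and KDR unmarked. Mesenchymal ones were marked at 19 of 22 in knockdown cells and 18 of 22 in control cells. Epithelial ones were marked at 8 of 20 in knockdown cells and 9 of 20 in control cells, with KRT7, KRT8, KRT18 and KRT19 marked and CDH1 unmarked in both.

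Although all 460 peaks were classed as intergenic, some lay on or beside annotated transcript starts. The promoter windows of 8 such starts are shown here. They were chosen because they overlap some of the strongest sites, 2 lost ones and the one with the largest gain in width. Of the 446 peaks for which start sites were used, 57 overlapped a RefSeq promoter window, or 12.8% (10.00 to 16.2%). Each window runs 300 bases, from 250 before the start to 50 after it. Of these windows 30 belong to protein-coding genes and 27 to lncRNAs. Only 4 of 355 intergenic SMARCB1 peaks outside control H3K27ac overlapped such a window, or 1.13% (0.439 to 2.86%). The sequences are from RefSeq (GRCh38.p14), read 5′ to 3′ on the strand of the transcript, and capitals mark matches on either strand to the letters TGANTCA (AP-1), GGAATG (TEAD), TGTTTAC (forkhead), CCGGAAG (ETS) or AGGGGGC (a CTCF core). No 2 matches overlap in the windows printed. A match is only a run of letters and no evidence of binding.

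The first 4 windows lie under SMARCB1 peaks of high value. GLIS1, a Krüppel-like zinc-finger factor, has its window at chr1:53738672-53738971 on the minus strand. KSR1, a scaffold of the RAS to MAP kinase pathway, has it at chr17:27456198-27456497 on the plus strand. BEND7 encodes a BEN domain protein, at chr10:13528965-13529264 on the minus strand, and LNC-LBCS is a lncRNA at chr6:19804710-19805009 on the minus strand.
GLIS1: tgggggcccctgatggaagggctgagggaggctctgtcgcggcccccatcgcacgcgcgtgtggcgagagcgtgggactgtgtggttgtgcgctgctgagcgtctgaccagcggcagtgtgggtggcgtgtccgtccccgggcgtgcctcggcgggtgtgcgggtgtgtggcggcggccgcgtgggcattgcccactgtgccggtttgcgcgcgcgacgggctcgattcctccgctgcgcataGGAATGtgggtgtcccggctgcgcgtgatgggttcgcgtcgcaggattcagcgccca
KSR1: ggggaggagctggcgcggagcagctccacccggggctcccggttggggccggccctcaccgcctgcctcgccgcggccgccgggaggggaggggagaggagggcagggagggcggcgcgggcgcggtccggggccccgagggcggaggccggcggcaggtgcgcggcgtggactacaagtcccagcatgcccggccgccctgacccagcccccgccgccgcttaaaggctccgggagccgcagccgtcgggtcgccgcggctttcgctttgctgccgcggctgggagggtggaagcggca
BEND7: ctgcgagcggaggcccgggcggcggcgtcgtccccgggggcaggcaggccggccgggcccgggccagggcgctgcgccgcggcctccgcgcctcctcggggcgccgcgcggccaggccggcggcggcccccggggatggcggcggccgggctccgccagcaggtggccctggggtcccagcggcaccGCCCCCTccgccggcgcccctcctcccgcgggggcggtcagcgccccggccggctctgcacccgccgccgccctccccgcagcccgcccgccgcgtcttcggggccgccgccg
LNC-LBCS: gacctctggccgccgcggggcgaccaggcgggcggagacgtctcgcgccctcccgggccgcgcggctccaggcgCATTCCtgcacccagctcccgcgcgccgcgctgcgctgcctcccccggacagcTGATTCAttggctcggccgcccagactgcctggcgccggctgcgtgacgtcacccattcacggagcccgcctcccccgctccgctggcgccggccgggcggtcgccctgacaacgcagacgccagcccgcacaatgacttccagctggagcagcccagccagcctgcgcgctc

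The next 2 windows hold an AP-1 match that spans the start itself, beginning 6 bases before it in LOC124903958 (chr17:27353759-27354058, minus strand) and 1 base before it in LOC124903564 (chr15:101168114-101168413, plus strand). Both are lncRNAs. The first lies in the cluster near WSB1 described later, and the second lies beside CHSY1, where the gain in H3K27ac width was largest. The SMARCB1 peak beside CHSY1 ends 112 bp from the second start, so that start and its match lie outside the peak.
LOC124903958: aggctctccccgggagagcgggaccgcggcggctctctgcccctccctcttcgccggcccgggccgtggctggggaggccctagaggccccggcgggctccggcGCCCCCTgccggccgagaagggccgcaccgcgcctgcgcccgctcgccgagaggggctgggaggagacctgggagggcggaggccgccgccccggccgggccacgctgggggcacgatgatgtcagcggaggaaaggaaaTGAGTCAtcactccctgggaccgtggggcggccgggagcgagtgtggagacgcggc
LOC124903564: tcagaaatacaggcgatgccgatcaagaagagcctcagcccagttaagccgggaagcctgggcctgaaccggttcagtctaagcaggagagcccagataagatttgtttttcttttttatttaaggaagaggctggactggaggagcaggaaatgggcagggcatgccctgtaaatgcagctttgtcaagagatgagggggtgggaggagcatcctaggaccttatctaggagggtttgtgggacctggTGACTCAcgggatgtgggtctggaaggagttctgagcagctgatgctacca

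The last 2 windows lie under SMARCB1 peaks whose H3K27ac peak had no counterpart in knockdown cells. CT75 is a lncRNA at chr2:222318221-222318520 on the plus strand, and TAFA3, which encodes a secreted chemokine-like protein, lies at chr1:112718655-112718954 on the plus strand. Neither window holds any of the 5 motifs, and nor does that of KSR1.
CT75: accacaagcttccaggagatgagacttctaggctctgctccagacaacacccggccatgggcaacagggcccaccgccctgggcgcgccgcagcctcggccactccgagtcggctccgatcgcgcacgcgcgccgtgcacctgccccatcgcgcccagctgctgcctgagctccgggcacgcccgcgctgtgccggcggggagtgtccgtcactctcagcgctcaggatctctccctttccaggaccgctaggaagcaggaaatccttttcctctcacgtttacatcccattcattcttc
TAFA3: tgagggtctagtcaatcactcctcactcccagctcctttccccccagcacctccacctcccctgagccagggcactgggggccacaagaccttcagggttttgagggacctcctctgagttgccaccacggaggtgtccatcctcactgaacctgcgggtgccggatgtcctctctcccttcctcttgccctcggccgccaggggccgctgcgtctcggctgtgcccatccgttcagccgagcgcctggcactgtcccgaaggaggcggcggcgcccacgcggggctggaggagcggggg

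The windows under these peaks were rich in G and C. Their median GC content was 72.3%, against 58.7% over all 34789 windows of the reference, and the median ratio of observed to expected CpG was 0.845 against 0.578. Windows under acetylated SMARCB1 peaks of the promoter-TSS class had much the same values, 71.7% and 0.902 (n = 917). An AP-1 match was present in 7 of the 57 windows, or 12.3%, against 7.69% of all windows and 4.80% of those under promoter-TSS peaks. For lncRNA starts it was 5 of 27, or 18.5%, against 10.3% of all lncRNA windows, and for coding starts 2 of 30, or 6.67%, against 6.15% of all coding windows. ETS matches were found in 12.3% of the 57, against 20.4% under promoter-TSS peaks and 10.2% of all windows. TEAD matches were found in 12.3%, against 7.52% under promoter-TSS peaks and 14.1% of all windows, and CTCF core matches in 21.1%, against 24.9% and 14.3%. A forkhead match was found in 1 window, or 1.75%, against 1.31% and 3.42%. Apart from AP-1, each motif thus lay between both sets. These counts rest on 57 windows, so each match moves a share by more than a percentage point. Whole windows were searched, and some overlap their SMARCB1 peak only in part, by 3 bp at LOC124904691. A match can therefore lie outside the peak, as the forkhead match at LOC124904691 does.

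SMARCB1 peaks in acetylated intergenic chromatin were modest in strength. The authors' value for each peak, in a unit not given in the sources used here, ran from 7.92 to 33.8 with a median of 11.1. Intergenic peaks without control H3K27ac had a median of 9.51, acetylated intron peaks 11.6 and acetylated promoter-TSS peaks 13.2, and the highest intron and promoter-TSS values were 326.9 and 789.6. Below 30 all 43 distinct values of the whole list were whole multiples of 0.528 within rounding, so peaks of 9.51 and 10.0 are 1 step apart. Of the 460 peaks, 318 had the minimum width of 500 bp, or 69.1%, and the widest spanned 1607 bp.

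The strongest 10 sites, taken 1 per nearest protein-coding gene, mixed gene starts with distal sites. The highest value, 33.8, was at chr1:54542025-54543121, 5107 bp from ACOT11, an acyl-CoA thioesterase gene. ANO4, an anoctamin ion channel and scramblase family gene, followed with 31.7 for a peak inside its record, then GLIS1 with 31.2 over its start. SMAD6, which encodes an inhibitor of BMP and TGF-beta signalling, had a peak of 30.6 at chr15:66802030-66803564, 19181 bp beyond its 3′ end. The phosphatase gene PTP4A3 had 29.0, TMCC1, a gene for an endoplasmic reticulum membrane protein, 28.5, KSR1 28, the microtubule-associated protein gene EML6 27.5, the pentraxin gene NPTX1 26.9 and WSB1, an E3 ubiquitin ligase substrate receptor gene, 26.4. Of these 10, 5 lay inside a RefSeq record of the named gene and 5 lay between 5107 and 19556 bp from one.

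All 10 kept an H3K27ac peak in knockdown cells, with widths on both sides of the control. ANO4 had 1546 bp in knockdown cells against 2583 bp in control cells, SMAD6 2852 against 4631 bp and WSB1 1930 against 2956 bp. ACOT11 (2746 against 2620 bp), KSR1 (1791 against 1757 bp) and NPTX1 (2036 against 2024 bp) were within 0.07 of each other on the log2 scale.

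Most of these sites lay within 100 kb of a protein-coding gene start but not on it. Off chromosome 8, 41 of 446 (9.19%) were within 1000 bp of a coding start, 129 (28.9%) within 10000 bp, 297 (66.6%) within 50000 bp and 374 (83.9%) within 100000 bp, with a median of 27175.5 bp. Intergenic SMARCB1 peaks without control H3K27ac lay farther out, with a median of 50116 bp and 1.13% within 1000 bp (n = 355). Acetylated intron peaks were closer, with a median of 1969 bp and 44.9% within 1000 bp (n = 791). Counted to either end of a coding gene, the median over all 460 was 13105.5 bp. With respect to the nearest coding record, 162 lay upstream, 137 downstream and 85 inside. For the other 76 no strand was given.

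**Figure D1:**
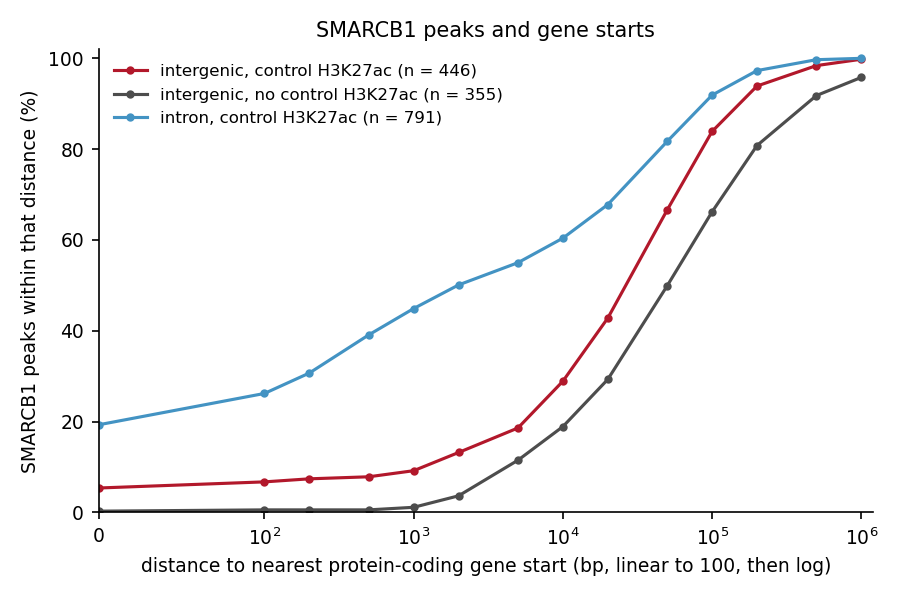
Share of SMARCB1 peaks (y axis, percent) within a given distance (x axis, bp, linear to 100 and logarithmic beyond) of the nearest protein-coding gene start, for intergenic peaks in control H3K27ac (n = 446), intergenic peaks outside it (n = 355) and acetylated intron peaks (n = 791), all off chromosome 8. The acetylated intergenic curve lies between the other 2, at 28.9% within 10000 bp against 18.9% for intergenic peaks outside H3K27ac and 60.4% for intron peaks.

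Non-coding records accounted for part of the set. A lncRNA record was overlapped by 86 peaks, of which 74 overlapped no protein-coding record, and 284 of the 460, or 61.7% (57.2 to 66.1%), overlapped no gene record of any kind. The most remote site, at chr13:64928655-64929154, was 1095602 bp from any coding record, with the uncharacterised LOC647264 as its nearest. It kept an H3K27ac peak of 1383 bp in knockdown cells against 1731 bp in control cells. TFAP2A, an AP-2 transcription factor gene active in epithelial and neural crest development, was the nearest coding gene of 2 remote sites, at 880062 and 917484 bp. The nearer of them kept 11158 bp in knockdown cells against 11549 bp in control cells, and the farther had no knockdown peak over it. In all 40 sites lay over 100 kb from any coding record, and 5 of these (5.46 to 26.1%) had no knockdown peak, against 10 of 221 sites within 10 kb (2.48 to 8.13%) and 11 of 199 in between (3.11 to 9.63%).

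Few of the sites lay close to another, and no expected spacing was computed to compare with. Only 22 of 460, or 4.78% (3.18 to 7.13%), lay within 12500 bp of another, as 11 pairs, and the median distance to the nearest other was 715896 bp. Within 50 kb the count was 53, or 11.5%, with groups of up to 4. In that group of 4 on chromosome 8, 1 site was nearest to KLF10, a TGF-beta inducible zinc-finger gene 82795 bp away. The others were nearest to AZIN1, the antizyme inhibitor of polyamine metabolism, at 15279 to 36953 bp. The group had SMARCB1 values of 13.7, 12.1, 20.6 and 12.1. Its 2 closest members share 1 H3K27ac peak of 6267 bp in knockdown cells and 6899 bp in control cells. A group of 3 near WSB1 on chromosome 17 spans 21489 bp, with values of 26.4, 15.8 and 20.1, and the H3K27ac peaks there measured 1930, 1269 and 2108 bp in knockdown cells against 2956, 1453 and 1909 bp in control cells. The nearest SMARCB1 peak outside the set was a median of 95412.5 bp away.

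Other pairs differed in how their H3K27ac changed. At PTPRF, which encodes the LAR receptor tyrosine phosphatase, the 2 sites had 2410 and 1411 bp in knockdown cells against 3179 and 4533 bp in control cells. The second of these control peaks was called as 2 pieces in knockdown cells, which measured 3602 bp together. The sites 83314 and 79652 bp from LHX1, a LIM homeobox gene, shared 1 peak of 16832 bp in control cells. In knockdown cells they lay on separate peaks of 8881 and 4324 bp. At LOC124903766 the widths were 1573 and 1529 bp in knockdown cells against 1582 and 1833 bp in control cells. The pair at ZHX3, a zinc-finger homeobox gene, and LPIN3, a lipin phosphatase gene, had 3739 and 4938 bp in knockdown cells against 3366 and 5083 bp in control cells. In all 28 coding genes were nearest to 2 or 3 sites, among them ITGA3, CCND1, JUN and DYRK1A.

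SMARCB1 sat well inside the acetylated region in most cases. Of the 460 peaks, 403 lay wholly within their control peak and 360 of 434 wholly within their knockdown peak. In control peaks of 2000 bp or more, the SMARCB1 centre fell in the middle 50% for 175 of 279, or 62.7% (56.9 to 68.2%), and in the outer 10% on either side for 25, or 8.96%. The weakest memberships rest on overlaps of 2 bp at a site nearest to LOC107984449, 51 bp at one nearest to NFE2L3 and 60 bp near SYT14. The LOC107984449 and NFE2L3 sites lay 541970 and 289285 bp from those genes. Just outside the rule were peaks 24 bp from control H3K27ac near ROPN1B and 35 bp from it near CITED2.

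At nearly all sites the acetylated region was still there in knockdown cells, and at most of them it was narrower, by a small amount in the median. An H3K27ac peak lay over 434 of the 460 sites in knockdown cells, with a median width of 2129 bp, against 2417.5 bp over all 460 in control cells. The median log2 ratio of knockdown over control width was −0.15 (n = 434), with quartiles of −0.39 and −0.00. The same median was −0.16 at acetylated intron SMARCB1 peaks and −0.14 at promoter-TSS ones. With the widest knockdown peak taken per control peak, it was −0.16 over the 434 control peaks with a site and a knockdown peak. By that measure it was −0.14 over all 29048 control peaks with a knockdown peak, so the sites were narrower by about as much as the whole list. The knockdown peak was narrower at 329 sites, or 75.8% (71.6 to 79.6%), and wider at 104, or 24.0%. At the 764 acetylated intron SMARCB1 peaks with a knockdown peak, the shares were much the same, 77.4% and 22.6%.

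Counted per control peak, with the widest knockdown peak in each, a width smaller by 1.5-fold or more was found at 68 of 434, or 15.7% (12.6 to 19.4%), against 14.5% of all control peaks. A width larger by 1.5-fold or more was found at 5, or 1.15% (0.493 to 2.67%), against 6.38% of all control peaks and 3.56% when all control peaks were weighted to the same width classes. It was as rare at other control peaks with SMARCB1, at 1.97% (1.20 to 3.23%) with an intron peak and 1.48% (0.940 to 2.33%) with a promoter-TSS one. Summed over distinct peaks, the 454 control peaks covered 1.78 Mb. The 431 knockdown peaks over the sites covered 1.45 Mb, a sum that leaves out the other pieces of split domains. With all pieces counted, knockdown peaks covered 86.9% of the control bases. The covered share was 76.8% for control peaks without SMARCB1 that overlap no coding record. Those peaks were narrower, with a median control width of 1326 bp against 2387.5 bp, and the covered shares were not weighted to width classes.

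**Figure D2:**
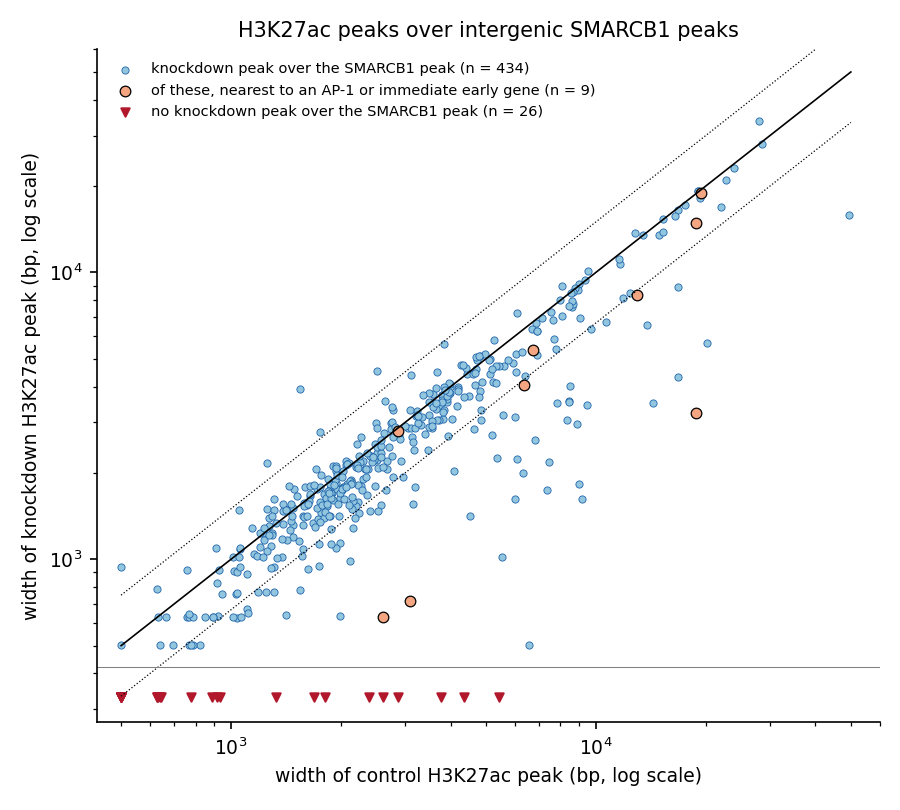
Width of the H3K27ac peak over each intergenic SMARCB1 peak in knockdown cells (y axis, bp, log scale) and in control cells (x axis, bp, log scale), 1 point per SMARCB1 peak. The solid line marks equal widths and the dotted lines a 1.5-fold difference, and triangles under the grey line are the 26 sites with no knockdown peak. Points gather just under the solid line, at a median log2 ratio of −0.15, with a scatter of much narrower knockdown peaks below it.

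The narrowest knockdown peaks relative to the control lay at CAV2, IER3, MICB, TLE3 and RNPEPL1. At chr7:116515450-116515949, 6909 bp from CAV2, a caveolin gene, the peak over the SMARCB1 site measured 501 bp in knockdown cells and 6570 bp in control cells, a log2 ratio of −3.71. Near IER3, an immediate early gene that modulates apoptosis, it measured 3244 against 18860 bp, near MICB, a stress-induced NKG2D ligand gene, 1622 against 9176 bp, near TLE3, a Groucho-family corepressor gene, 1015 against 5541 bp, and at RNPEPL1, an aminopeptidase gene, 1834 against 8976 bp. In each of the 5, the control peak was called as 2 pieces in knockdown cells, and the site lay on the smaller piece. The 2 pieces together measured 4823 bp against 6570 bp at CAV2, 18142 against 18860 bp at IER3, 7799 against 9176 bp at MICB, 2360 against 5541 bp at TLE3 and 7882 against 8976 bp at RNPEPL1. Knockdown peaks covered 4532 of the 6570 control bases at CAV2 and 2360 of the 5541 at TLE3. At CAV2, IER3, MICB and RNPEPL1 most of the domain was thus still called in knockdown cells.

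Widening was rarer and smaller. The largest was beside CHSY1, a chondroitin synthase gene, where the peak at chr15:101167628-101168252 lay in 3926 bp of H3K27ac in knockdown cells and 1550 bp in control cells, a log2 ratio of 1.34. Among sites in control peaks of 1 kb or more, those near ANKRD10 (4517 against 2519 bp) and PICALM, a clathrin assembly gene (2165 against 1254 bp), came next. After them came a site 117593 bp from TRIB1, a pseudokinase gene (2784 against 1758 bp), and one near LGALS9C, a galectin gene (5652 against 3826 bp).

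Of the 10 widest control domains holding a site, most kept their length. The widest held a site 22033 bp upstream of SMURF2, an E3 ubiquitin ligase of the TGF-beta pathway. This domain, at chr17:64642679-64692126, extended over the 5′ end of SMURF2 into the gene record. It was called as 3 peaks of 47543 bp together in knockdown cells, against 1 peak of 49448 bp in control cells, and the piece over the SMARCB1 site measured 15806 bp in knockdown cells. Near CLIC4, a chloride intracellular channel gene, the domain measured 28136 bp in knockdown cells and 28463 bp in control cells, near NANOS3, an RNA-binding protein gene, 23104 and 23924 bp, near ITGA3, the integrin alpha 3 gene, 21010 and 22678 bp, and near EPHA2, an ephrin receptor gene, 19211 and 19076 bp. Near ARHGAP29, a GTPase-activating protein gene, it was split, with 16952 bp over the site and 20641 bp in all in knockdown cells, against 22051 bp in control cells. The largest loss among them was near CAVIN2, a caveola coat gene, where pieces of 8752 and 5699 bp in knockdown cells stood against 20141 bp in control cells.

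Splitting of this kind was found at 41 of the 454 control peaks that hold a site, or 9.03% (6.73 to 12%), against 3.05% of all control peaks. Among other control peaks it was 8.07% (6.37 to 10.2%) with an intron SMARCB1 peak and 3.67% with a promoter-TSS one. Weighted to the width classes of the 454, these were 8.72% and 5.71%. Wide peaks are split more readily: weighted to the width classes of the 454, all control peaks gave 6.74% and peaks without SMARCB1 outside coding records 7.09%. In the widest class, from 4289 bp on, 37 of 115 control peaks with a site were split, or 32.2%, against 22.9% of all control peaks. There it was 30.7% with an intron SMARCB1 peak and 20.5% with a promoter-TSS one. Among control peaks of 10 kb or more the order was the other way. Of these, 11 of 28 with a site were split, or 39.3% (23.6 to 57.6%), against 49.5% of all 554. The 41 split domains had a median control width of 7811 bp, and knockdown peaks covered a median of 80.0% of them. Of the 44 sites within split domains, 21 lay on the widest knockdown piece, 22 on a narrower one and 1 on none. A domain counts as split wherever the caller left a gap, and the knockdown library had fewer tags. The part of that depth in the count was not tested.

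**Figure D3:**
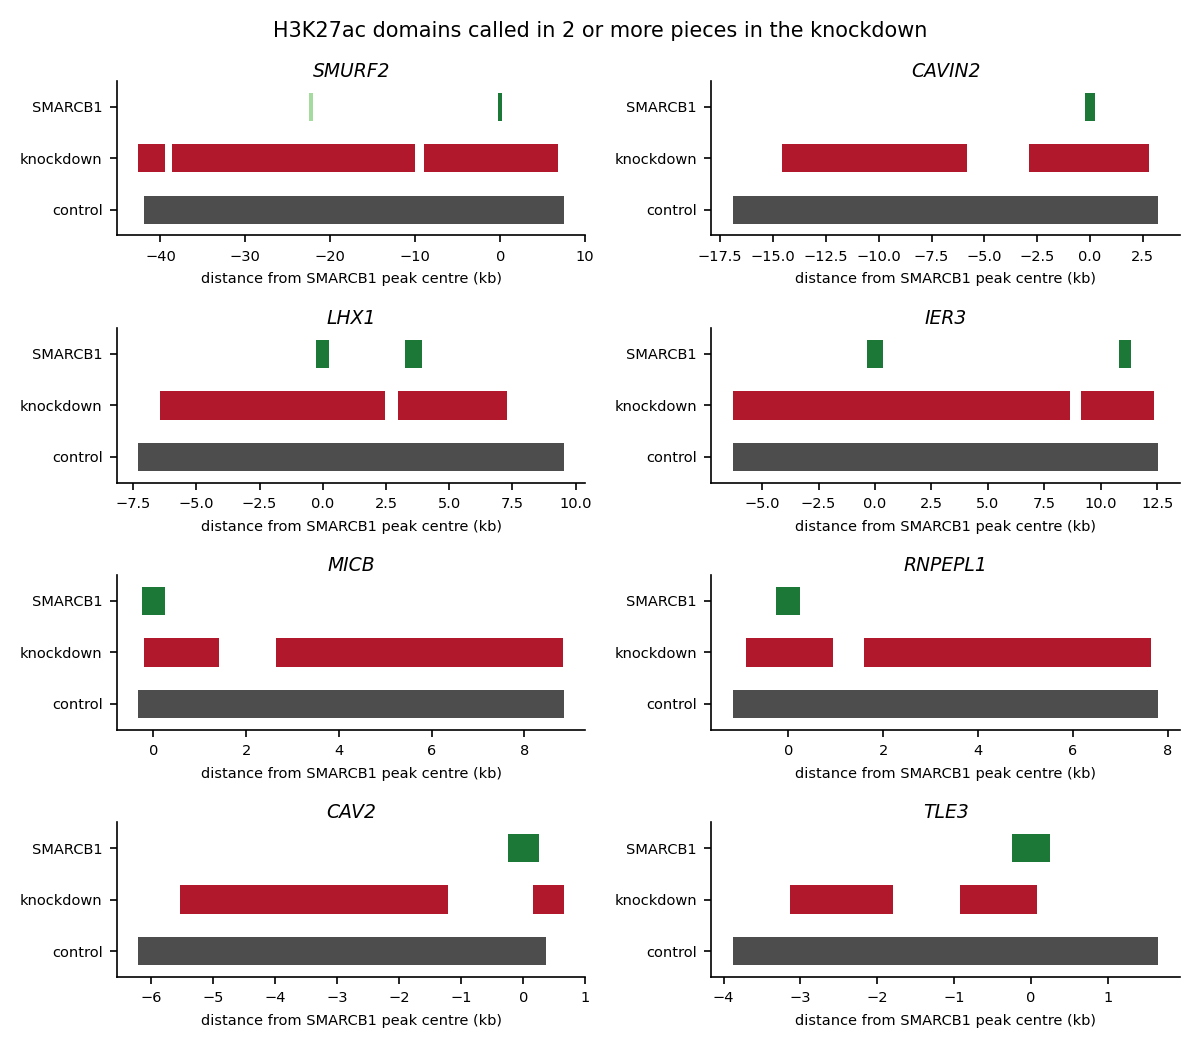
Maps of 8 control H3K27ac domains called as 2 or more peaks in knockdown cells, named by nearest coding gene, with SMARCB1 peaks (dark green for sites of the set, light green for another SMARCB1 peak), knockdown H3K27ac (red) and control H3K27ac (grey) against distance from the SMARCB1 peak centre (x axis, kb, scale differs between panels). At SMURF2 the gaps are small and knockdown peaks covered 46869 of the 49448 bp, whereas at CAVIN2 and TLE3 large parts of the control domain have no knockdown peak.

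No knockdown peak lay over 26 of the 460 sites, or 5.65% (3.89 to 8.15%). The share was 5.68% (4.28 to 7.49%) of 810 acetylated intron SMARCB1 peaks and 1.19% (0.725 to 1.96%) of 1256 acetylated promoter-TSS ones. Since the sites were selected on control H3K27ac, the set can show the loss of a peak but not its gain. Seen from the other side, 442 intergenic SMARCB1 peaks overlapped knockdown H3K27ac and 8 of these, or 1.81% (0.920 to 3.53%), had no control peak. Counted per control peak, 20 of 454 had no knockdown peak at all, or 4.41% (2.87 to 6.71%), against 17.7% of all control peaks. Weighted to the same width classes, the share was 7.06% for all control peaks and 7.31% for peaks without SMARCB1 outside coding records.

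The sites without a knockdown peak lay in narrow control peaks and had low SMARCB1 values. Of the 26, 17 lay in control peaks under 1000 bp, and 8 of these were at the caller's minimum of 501 bp. Among the other 434 sites, 25 lay in control peaks under 1000 bp and 2 at 501 bp. The median control width was 710 bp for the 26 and 2510.5 bp for the 434, and the median SMARCB1 value was 10.0 against 11.6. Of the 229 sites above the median value 5 had no knockdown peak, or 2.18% (0.936 to 5.01%), against 21 of the 231 others, or 9.09% (6.02 to 13.5%). By class of control width the share was 59.1% in the narrowest class, against 57.8% for peaks without SMARCB1 outside coding records. In the next 2 classes the sites had 14.8% (5.92 to 32.5%) and 2.63% (0.466 to 13.5%), against 28.1% and 13.2%. In the widest class it was 0 of 115, with an upper bound of 3.23%, against 0.108%.

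**Figure D4:**
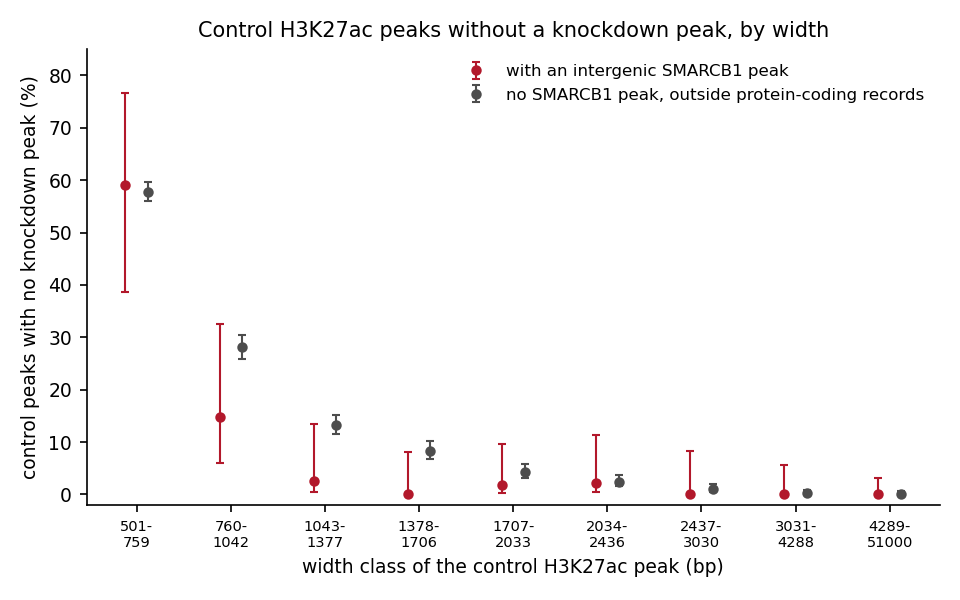
Share of control H3K27ac peaks with no overlapping knockdown peak (y axis, percent, bars are 95% Wilson intervals) by width class of the control peak (x axis, bp), for the 454 peaks that hold an intergenic SMARCB1 peak and for 10993 peaks without SMARCB1 outside protein-coding records. The sets start at 59.1% and 57.8% in the narrowest class, and both lie below 5% from 1707 bp on.

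Of the 26, 20 lay in control peaks with no knockdown peak anywhere, and the widest of those was 4602 bp from HAP1. There a control peak of 2395 bp at chr17:41738202-41740596 had no knockdown counterpart, the SMARCB1 peak at chr17:41739248-41739747 had a value of 13.2, and the nearest knockdown peak was 46152 bp away. HAP1 encodes a huntingtin-associated trafficking protein. The next widest were at RNF228 and the start of CT75 (1811 bp in control cells, 121676 bp to the nearest knockdown peak) and 218026 bp from EIF3H, a translation initiation factor gene (1325 bp). The others had control widths of 501 to 935 bp. They include sites nearest to DUSP5, a phosphatase that restrains ERK (887 bp), and ATF3, a stress-induced AP-1 family factor (640 bp). Others, of 501 bp each, were nearest to SOCS3, a feedback inhibitor of cytokine signalling, GRHL3, an epithelial transcription factor, and NFE2L3, a CNC-bZIP factor. The NFE2L3 site lay 289285 bp from its gene, and the rest of these lay 33426 to 51950 bp from theirs. TAFA3 had the highest SMARCB1 value of the 26, at 16.9, in a control peak of 501 bp.

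In the remaining 6 the control domain kept a knockdown peak that stopped short of the SMARCB1 site. The gap was 9 bp at the site 980507 bp from GPC5, a glypican gene, and 153 bp at the one 917484 bp from TFAP2A. It was 68 bp near SYT14, 91 bp near ZNHIT6, 442 bp near TRMT44 and 1141 bp at SH2D6. At the TFAP2A site the knockdown peak still measured 4327 bp against 5422 bp in control cells, and at SH2D6 804 against 2873 bp. At the GPC5, SYT14 and ZNHIT6 sites the call turns on under 100 bp of a peak boundary.

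The nearest genes were then read against 16 gene lists. In all, 429 of 19821 protein-coding genes, or 2.16%, were nearest to at least 1 site. AP-1 and immediate early genes, the fast transcriptional responders to growth factors and stress, stood at 8 of 22, or 36.4%: IER3 and JUN with 2 sites each, and IER5, FOS, IER2, ATF3, KLF6 and FOSL2 with 1. These genes also sit among many other acetylated regions, since 13 of the 22 were nearest to a total of 68 control peaks without SMARCB1 outside coding records. Of the genes nearest to such an unbound peak, 5.32% were nearest to a site as well.

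The H3K27ac peak over the site was narrower in knockdown cells at all 9 of these sites that kept one, beside 75.8% of all 434, and the site near ATF3 had none. At FOS, 1265 bp upstream of the gene at chr14:75277064-75277563, the peak measured 629 bp in knockdown cells and 2603 bp in control cells. At FOSL2, 36720 bp beyond its 3′ end, it measured 715 against 3098 bp. Both domains were split, with 1652 bp in all at FOS and 2053 bp in all at FOSL2 in knockdown cells. The 2 sites near IER3 had separate peaks of 14898 and 3244 bp in knockdown cells and share a peak of 18860 bp in control cells. IER2 had 8348 bp over the site and 11093 bp in all against 12972 bp, IER5 4063 against 6353 bp and KLF6 5376 against 6734 bp. The 2 sites upstream of JUN, at 119466 and 232691 bp, differed little, with 2798 against 2864 bp and 18950 against 19386 bp. The median log2 ratio of the 9 was −0.64, beside −0.15 over all 434 sites. That median counts the IER3 domain for both of its sites and takes the piece over each site. With each control peak counted once and its widest knockdown peak taken, a measure added after the values were seen, the median was −0.49 (n = 8), beside −0.16 over the 434 control peaks with a site and a knockdown peak. On that measure it was −0.24 at the 56 unbound peaks nearest to genes of the same list that had a knockdown peak, and −0.11 at all 8560 unbound ones outside coding records. Knockdown peaks covered 86.7% of the bases of the 9 control peaks near these genes, close to the 86.9% for the whole set.

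**Figure D5:**
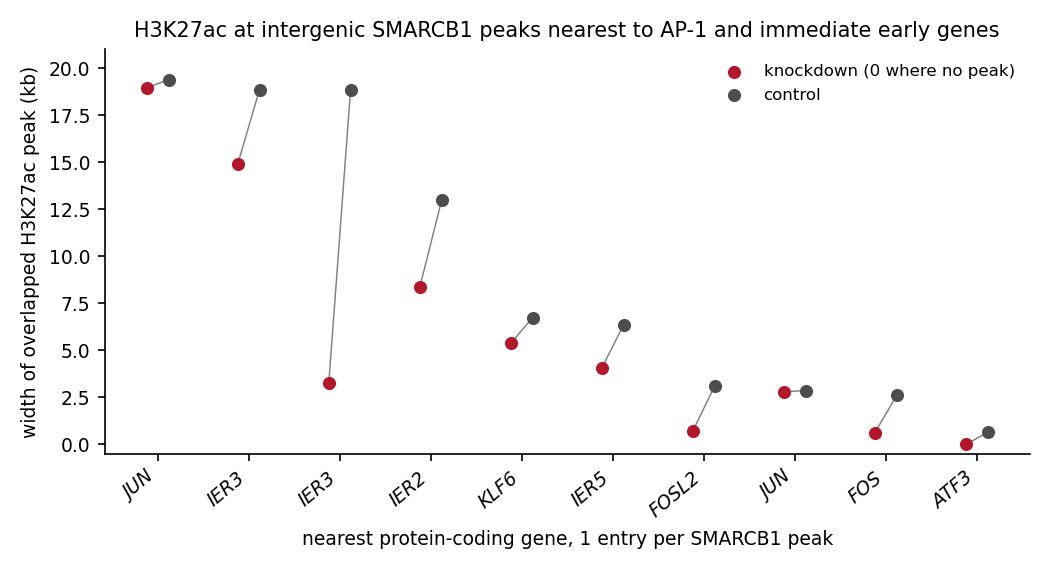
Width of the H3K27ac peak (y axis, kb), by the piece that overlaps the site, over each of the 10 intergenic SMARCB1 peaks whose nearest coding gene (x axis) is an AP-1 or immediate early gene, in knockdown cells (red) and control cells (grey). Each red point lies below its grey partner, with the smallest differences at JUN and the site near ATF3 at 0 in knockdown cells.

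Genes of the TGF-beta pathway and its feedback were nearest for 4 of 24, or 16.7%: SMAD6, SMAD3, SMURF2 and SKI, a SMAD corepressor gene whose site 437 bp away had 5837 bp in knockdown cells against 5247 bp in control cells. At SMAD3, a receptor-activated SMAD, the widths were 4991 and 5130 bp. The median log2 ratio over the 5 sites was −0.08. Integrins and laminins had 4 of 22 (ITGA3, ITGB1, ITGB6 and LAMC1) with a median of −0.11 over 5 sites. At the stronger ITGA3 site, with a SMARCB1 value of 25.4, the peak measured 5215 bp in knockdown cells and 6044 bp in control cells. Collagens and matrix proteins had 5 of 32 (COL1A2, COL4A1, COL5A1, COL16A1 and COL18A1), all with a knockdown peak, and a median of 0.00.

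Of the EGF receptor list, which holds its ligands and feedback regulators, 4 of 22 were nearest to a site: SPRED2, CCND1, MYC and DUSP5. The 2 sites nearest to CCND1, the cyclin D1 gene, lay 99837 and 4456 bp from it. They had 2983 and 13535 bp in knockdown cells against 2496 and 14885 bp in control cells. The site 434336 bp from MYC had 13814 against 15264 bp. Epithelial markers had 3 of 20, with KRT8 (4957 against 5755 bp), KRT7 (6803 against 7610 bp) and ESRP2, a splicing regulator gene (2858 against 3060 bp). SWI/SNF subunits had 2 of 28. These were BICRAL, with 2 sites at 3849 and 3514 bp in knockdown cells against 4202 and 3639 bp in control cells, and BCL7C, with 1238 against 1295 bp.

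The lists of NRF2 antioxidant genes (GCLC and TXNRD1) and of hypoxia and glycolysis genes (SLC2A3 and GPI) had 2 of 20 and 2 of 24. YAP and TEAD factors and targets had 1 of 25, F3, the tissue factor gene, with 6344 against 9724 bp at a site 104569 bp away in a split domain of 6845 bp in all in knockdown cells. The inflammation list had 1 of 24, IL11, with 2988 against 2750 bp, and cytosolic ribosomal proteins had 1 of 43, RPL3, with 5156 against 6909 bp. Mesenchymal transcription factors and markers (22 genes), actin cytoskeleton genes (26), hepatocyte markers (21) and endothelial markers (21) had none. No list was tested for enrichment.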

How the data were processed

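SMARCB1 and H3K27ac ChIP-seq peak lists were analysed, with 1 library per group, and groups were taken from the titles. The deposited files give peak coordinates on hg38, and the submitters' processing notes name Bowtie2 and HOMER without versions. Per the file headers, each H3K27ac list was called in histone style, with 500 bp peaks at least 1000 bp apart and at least 4-fold more tags than both the input and the surroundings. The authors' SMARCB1 value, with settings and depth not given in the sources used here, served only to rank peaks within its list.

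Peaks on the autosomes and X counted as shared where they overlapped by 1 base or more, checked with bedtools 2.31.1 and tested on simulated data. Distances were taken to the RefSeq table of GRCh38.p14 (19821 protein-coding genes, without those on alternate or unplaced sequences), whose main chromosomes are those of hg38. Gene starts and strand came from RefSeq promoter windows, which were not used for chromosome 8. Width classes were set at the 10 deciles of the control list, of which the lowest 2 were joined because many peaks are 501 bp wide. Named genes are those nearest to the 10 highest-valued sites, the 6 strongest clusters, the 10 widest control peaks and up to 20 sites without a knockdown peak. The same rule names the 5 largest differences in width each way among sites in control peaks of 1 kb or more. It also names the 5 most remote sites and the members of each list. A few sites that this rule names are not reported here. The remaining sites named were chosen after their values were seen. The sites and lists were chosen with earlier results of these data known. Motifs were to be searched in the peaks themselves, which needs a genome sequence, so promoter windows were searched instead. The software was Python 3.11.15 with pandas 2.3.3, NumPy 2.4.6, matplotlib 3.10.9 and SciPy 1.17.1.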

Additional observations from a re-analysis of the deposited data

How the results depend on the processing

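Each of the 7 main values was recomputed under the alternatives, and 37 of 51 recomputed values stayed within the 95% interval of the reported one (for the number of sites, within 1.5 times). With only H3K27ac peaks of 1 kb or wider, the median knockdown width was 2408.5 bp. As a difference from the median of the same width class, the median log2 ratio was 0.00, so the sites were about as much narrower as control peaks of their width. The class medians take the widest knockdown peak of each control peak, whereas the ratio of a site takes the peak over it. The share of sites near another was 3.04% with a window of 5 kb and 11.5% with 50 kb. The median distance to a gene end was 3810.5 bp with all genes of the reference, and 27175.5 bp to a coding gene start. Above the median SMARCB1 value of the whole list, 199 sites remained, of which 2.01% had no knockdown peak and 3.02% lay within 12500 bp of another, with a median distance to a gene end of 9417 bp. Among alternatives chosen after seeing the data, sites overlapping no protein-coding record gave a median distance of 18609 bp, and the 284 sites overlapping no gene record gave a median distance of 17839.5 bp and a median knockdown width of 2438.5 bp. No paired analysis was possible because each group has 1 library and its replicate number does not come from the labels. The 1 library per group, the shallower knockdown library, calls against the control input and H3K27ac peaks without heights limit all comparisons of conditions, and their part in the results was not tested.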

Other observations

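Some sites coincided with tRNA genes, which are transcribed by RNA polymerase III, a group not on the lists and looked at after the values were seen. A tRNA record was overlapped by 9 of the 460 sites, or 1.96% (1.03 to 3.68%), against 1 of 810 acetylated intron SMARCB1 peaks, 4 of 1256 promoter-TSS ones and 0 of 366 intergenic ones outside control H3K27ac. Of the control H3K27ac peaks that hold a site, 2.64% overlapped one, against 0.791% of those without SMARCB1 outside coding records. All 9 kept a knockdown peak. The strongest, at the tRNA-Asn record TRN-GTT2-4 (chr13:30673873-30674694, SMARCB1 value 21.1), had 828 bp in knockdown cells and 915 bp in control cells. The largest difference was at TRG-GCC2-6 near HES7, with 2183 bp over the site and 6145 bp in 2 pieces in all against 7423 bp, and TRS-CGA1-1, also on chromosome 17 and nearest to PER1, had 632 against 1991 bp. Width was larger in knockdown cells at TRR-CCG2-1 near KPNA2, with 1783 against 1593 bp.

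Chromosome 17 held 40 sites, or 8.70%, but 3.93% of the control H3K27ac peaks outside coding records and 10.7% of all SMARCB1 peaks. Chromosome 4 held 6 sites, or 1.30%, with 4.52% of such control peaks and 1.35% of SMARCB1 peaks. DNA copy number was not analysed here.

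Genes nearest to the 8 intergenic SMARCB1 peaks with H3K27ac in knockdown cells and none in control cells included ATP13A2, SLC4A3, RGS2, LY86, STEAP3, FGF18 and TBX3. The knockdown widths ran from 2482 bp at ATP13A2, a lysosomal P5-type ATPase gene, where control H3K27ac began 564 bp away, down to 501 bp at FGF18 and TBX3. Near RGS2, a regulator of G protein signalling, the knockdown peak measured 1314 bp and the nearest control peak was 17574 bp away.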
